A study of Mus musculus with 21 samples.

Results

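Injury of the intestinal lining is followed by a passing epithelial state that resembles the fetal gut, and 6 genes used as markers of that state, Ly6a, Clu, Anxa1, Anxa3, Ankrd1 and Amotl2, are described here across mouse colon and colon tumours. They were taken by name from a table of read counts for 24062 genes, and all 6 were among the 15936 genes with enough reads to be tested. The table holds 21 libraries of total RNA from colon tissue of C57BL/6 mice in 7 groups of 3. The mice were wild-type or carried App NL-G-F, a knock-in that places Alzheimer's disease mutations in the mouse gene for the amyloid precursor protein at its own locus, so that no added promoter drives it. The tumour groups came from mice given AOM/DSS, which pairs the carcinogen azoxymethane with dextran sulfate sodium, an agent that ulcerates the colon. The groups were normal colon and tumour of wild-type males, normal colon and tumour of knock-in males, normal colon and tumour of wild-type females, and normal colon of knock-in females. A tumour group of knock-in females is not analysed here. The labels mark every normal library as untreated, whereas the series' design speaks of tissue next to tumours and of colon without tumours, so the history of a given normal library is open. Ages are not given in the sources used here. The study asked how the App mutations alter colon tumours in each sex, and the comparisons below follow that design.

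In the uninjured colon, stem cells at the crypt base that depend on Wnt signalling renew the epithelium. After damage these cells are lost, and surviving epithelium switches for a time to a fetal-like program under the transcriptional coactivators YAP and TAZ, which are held back by the Hippo kinases and act through TEAD proteins on DNA. Ly6a encodes the surface protein Sca-1, which marks regenerating colon epithelium and is also made by endothelium and blood progenitors. Clu encodes clusterin, a secreted chaperone that marks revival stem cells. Anxa1 and Anxa3 encode annexins, proteins that bind membranes in the presence of calcium, and Anxa1 also dampens the entry of neutrophils into inflamed tissue. Ankrd1 and Amotl2 are direct targets of YAP and TEAD. Ankrd1 encodes a nuclear ankyrin repeat protein, and Amotl2 an angiomotin that binds YAP and holds it in the cytoplasm.

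Since YAP acts through TEAD, the stretches just before the members' start sites were searched for GGAATG, the core TEAD motif, or CATTCC, the same letters on the other strand. RefSeq promoter sequence for build GRCm38.p6 was at hand for Anxa1, Ankrd1 and Amotl2 (3 of the 6), and each held at least 1 match in the 250 bases before the start. Among all 32851 promoters of that table, 4153 (12.6%) held a match in the same window. The windows below are 30 bases long and read 5′ to 3′ on the gene's strand, and the capitals mark the motif.
Anxa1: actgcactgaacCATTCCtgtgaggaataa
Ankrd1, farther match: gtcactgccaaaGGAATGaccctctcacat
Ankrd1, nearer match: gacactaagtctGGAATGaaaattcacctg
Amotl2: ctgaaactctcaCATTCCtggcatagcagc
The Anxa1 match begins 236 bases before the RefSeq start, at chr19:20390890-20390919 on the minus strand. The Ankrd1 matches begin 210 and 123 bases before it, at chr19:36120037-36120066 and chr19:36119950-36119979, also on the minus strand. The Amotl2 match begins 65 bases before it, at chr9:102717727-102717756 on the plus strand. All 4 windows lie in an annotated exon within the gene's span in GENCODE vM21, whose gene models begin upstream of the RefSeq starts. Binding was not measured, and a match describes only the letters.

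On build GRCm38, Ly6a lies at chr15:74994877-74998031 (minus strand), Clu at chr14:65968483-65981547 (plus), Anxa1 at chr19:20373428-20390944 (minus), Anxa3 at chr5:96793339-96845966 (plus), Ankrd1 at chr19:36111961-36120099 (minus) and Amotl2 at chr9:102716672-102733418 (plus). Counts were summed over exons. Ly6a shares 19.0% of its distinct 50-base stretches of transcript sequence with other genes, 15.0% with its neighbour Ly6c1, so its reads may be split between copies and its values are uncertain. Anxa3 shares 1.79% with Gm42603, a predicted gene that overlaps it on the same strand, and Amotl2 shares 0.369%. Clu, Anxa1 and Ankrd1 share none.

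Library totals ranged from 3414123 to 26174008 counts. Nothing in the labels says whether the 3 libraries of a group came from separate mice, so the p-values measure the spread between these libraries. In 8 of the 21 libraries, genes of stratified squamous epithelium, a cell layer that the colon lacks, stood high. These libraries had Trp63, the master regulator of that layer, at 4.13 to 121 CPM (counts scaled to a common library size), against 0 to 0.351 CPM in the other 13, where 6 libraries had no Trp63 count. The summed level of 12 squamous genes was 208 to 3884 CPM in the 8 libraries (10 to 12 genes detected) and 7.94 to 131 CPM in the 13 (8 to 11 detected). The 8 libraries were the first of the wild-type male normal, wild-type male tumour, knock-in male normal and knock-in female normal groups, knock-in male tumours 2 and 3, wild-type female tumour 3, and 1 of 2 knock-in female normal libraries that carry the same name in the table, called a and b here, of which b is meant. The fits were repeated without these 8, a choice made after the values were seen. Marker lists of 12 epithelial genes summed to 9038 to 12486 CPM in normal colon and 6554 to 9447 CPM in tumours, so colon epithelium was present throughout. Smooth muscle genes summed to 2027 to 9866 CPM in normal colon and 214 to 1072 CPM in tumours. In such bulk tissue, fewer cells of a type and less RNA per cell cannot be told apart.

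**Figure D1:**
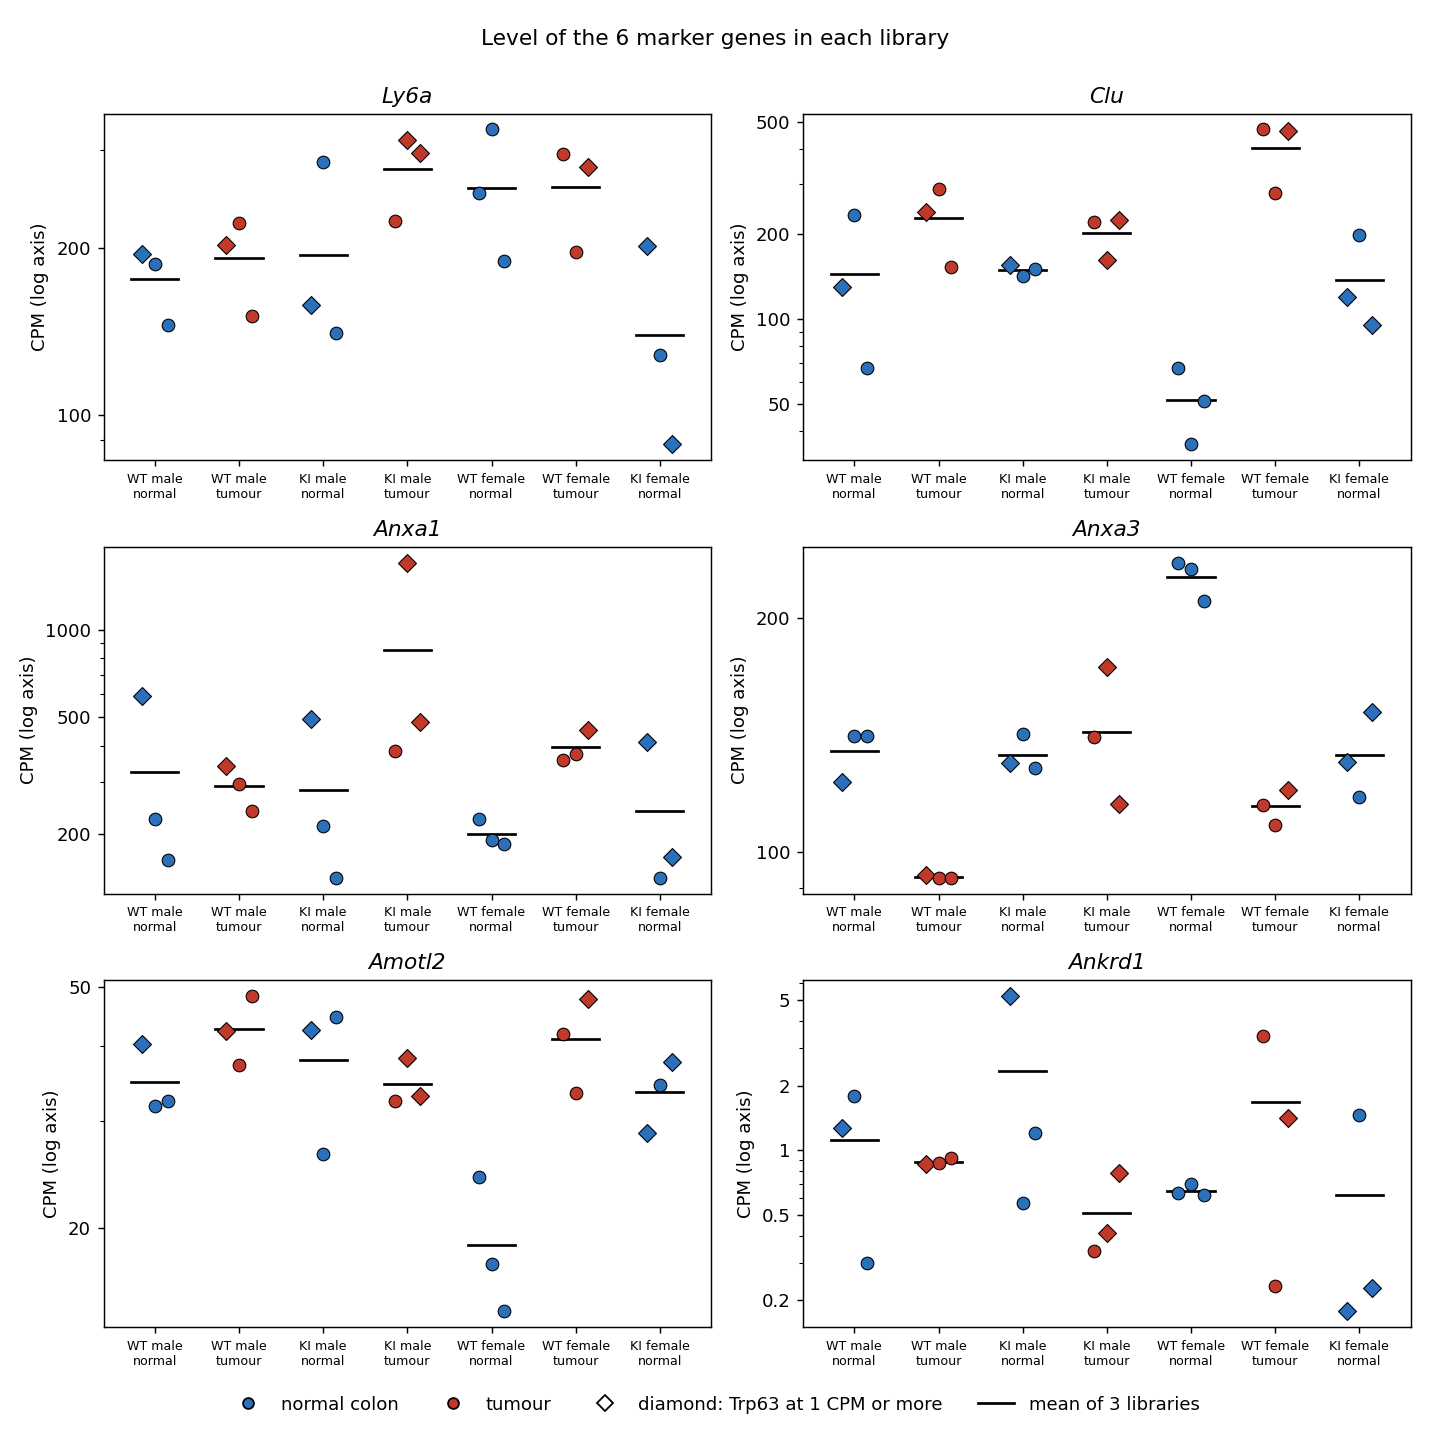
Level of each of the 6 genes (CPM, log axes that differ between panels) in each of the 21 libraries by group (WT, wild-type; KI, App NL-G-F knock-in), with bars at the mean of 3 libraries; diamonds are the 8 libraries with Trp63 at 1 CPM or more. The 3 wild-type female normal libraries sit lowest of all groups for Amotl2 and highest for Anxa3, and Anxa1 is highest in a diamond in 6 of the 7 groups.

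The 6 genes differed widely in level. Per kilobase of exon, group means ran from 116 to 230 CPM for Ly6a, from 68.5 to 293 for Anxa1, from 15.0 to 118 for Clu, from 25.5 to 62.0 for Anxa3 and from 2.98 to 6.79 for Amotl2. Ankrd1 was nearly absent, at 0.177 to 0.809 CPM per kilobase and 2 to 56 counts in a library. In 5 libraries it had 3 counts or fewer, the limit that a count of 0 allows (0.127 to 0.872 CPM by library), which covers counting error only.

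Ly6a did not pass the test in any comparison. Its group means ran from 277 ± 47.1 CPM (SD, n = 3) in knock-in male tumours down to 139 ± 57.3 CPM in knock-in female normal colon, and each group overlapped the next in that order. Wild-type female tumours (257 ± 52.9 CPM) and wild-type female normal colon (256 ± 69.0 CPM) were almost level, with a log2 difference of 0.0063 (95% interval -0.63 to 0.64). The largest difference in size was between knock-in and wild-type female normal colon. There the knock-in libraries had 201, 128 and 88.4 CPM and the wild-type libraries 251, 327 and 189 CPM, a log2 difference of -0.88 ± 0.30 (SE) with an edgeR adjusted p of 0.0583. The groups overlapped in 1 library of each. DESeq2 called the same difference (adjusted p = 0.0241), and edgeR called it without wild-type female normal 3 (0.0354) or without knock-in female normal 1 (0.0192). Of 12 endothelial genes, whose cells also make Ly6a, 10 were higher in the knock-in libraries, against 8.97% of all genes. The part of endothelium in the level of Ly6a was not tested.

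Clu rose most of the 6 in wild-type female tumours. Its 3 tumour libraries had 470, 281 and 464 CPM and the 3 normal libraries 67.2, 35.9 and 51.2 CPM, so the groups were far apart. The log2 difference was 2.97 ± 0.41 (edgeR adjusted p = 2.19e-05). In wild-type males the tumours had 240, 290 and 153 CPM and the normal libraries 130, 234 and 67.0 CPM. These overlapped, and the log2 difference of 0.66 ± 0.38 did not pass (adjusted p = 0.193). When wild-type male normal 2 was left out it was 1.19 (adjusted p = 0.0231), and when wild-type male normal 3 was left out it was 0.32 (adjusted p = 0.561). In knock-in males the tumours had 221, 162 and 224 CPM against 155, 142 and 150 CPM in normal colon, without overlap, but the log2 difference was 0.44 ± 0.38 (adjusted p = 0.428).

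In order of mean Clu level, wild-type female tumours (405 ± 108 CPM) stood above wild-type male tumours (228 ± 69.3 CPM) and knock-in male tumours (202 ± 34.8 CPM), and the neighbours in that order overlapped. Knock-in male tumours did not overlap knock-in male normal colon, the next in order. The normal colon of knock-in males (149 ± 6.52 CPM), wild-type males (144 ± 84.5 CPM) and knock-in females (138 ± 54.4 CPM) overlapped each other, and wild-type female normal colon had the lowest mean (51.4 ± 15.6 CPM). It did not overlap knock-in female normal colon, but it did overlap wild-type male normal colon, where 1 library had 67.0 CPM.

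Anxa1 had its highest value, 1694 CPM, in knock-in male tumour 2, the library with the most squamous signal (3884 CPM over the 12 genes and 121 CPM of Trp63). The other knock-in male tumours had 384 and 481 CPM, and the 3 knock-in male normal libraries 494, 213 and 141 CPM. The groups overlapped, and the log2 difference was 1.60 ± 0.62 (edgeR adjusted p = 0.0781). Without the first normal library, which has squamous signal, it was 2.22 (adjusted p = 0.0397). Without tumour 2 it was 0.58 (adjusted p = 0.510), and without all 8 such libraries it was 1.10 (adjusted p = 0.124). In wild-type males the first normal library, again one with squamous signal, had 590 CPM against 225 and 163 CPM in the others, and the tumours had 340, 295 and 239 CPM. The log2 difference was -0.16 ± 0.61 with all libraries and 0.45 (adjusted p = 0.196) without the 8.

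In wild-type females Anxa1 stood at 358, 373 and 453 CPM in tumours and at 224, 190 and 184 CPM in normal colon, without overlap. The log2 difference was 0.99 ± 0.61, which did not pass in the fit of all groups (adjusted p = 0.197). It passed when only these 2 groups were fitted (0.98, adjusted p = 0.000259) and without the 8 libraries (0.89, adjusted p = 0.00604). Squamous sums were 129, 79.0 and 208 CPM in these tumours and 7.94 to 10.3 CPM in this normal colon. The first 2 of these tumours stay in the fit without the 8 libraries. Of the squamous genes, Krt14 had 78.6 and 38.9 CPM in those 2, Krt5 0 and 2.69 CPM, and Trp63 0.271 and 0.351 CPM. Group means of Anxa1 ran from 853 ± 730 CPM in knock-in male tumours to 199 ± 21.3 CPM in wild-type female normal colon, and each group overlapped the next.

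Over all libraries, Anxa1 ranged from 166 to 1694 CPM (median 467) in the 8 with squamous signal and from 141 to 384 CPM (median 224) in the other 13. In 6 of the 7 groups the library with the most Anxa1 was also the one with the highest squamous sum. The exception was wild-type female normal colon, whose sums lay between 7.94 and 10.3 CPM. The libraries of a group had the same full order in both measures in 3 of the 7 groups. Of the 11 neutrophil genes in the table, Ltf, the gene for lactoferrin, a protein of neutrophil granules and of secretory epithelium, was high in the same libraries, at 51.1 to 1380 CPM (median 220) in the 8 and 0.398 to 21.2 CPM (median 4.41) in the 13. The other 10 neutrophil genes did not separate these sets, with sums of 5.20 to 188 CPM (median 48.2) and 4.08 to 248 CPM (median 46.1). The part of squamous cells in the level of Anxa1 was not tested. The other members had medians closer together in these sets of libraries, for example 202 and 196 CPM for Ly6a and 159 and 153 CPM for Clu.

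**Figure D2:**
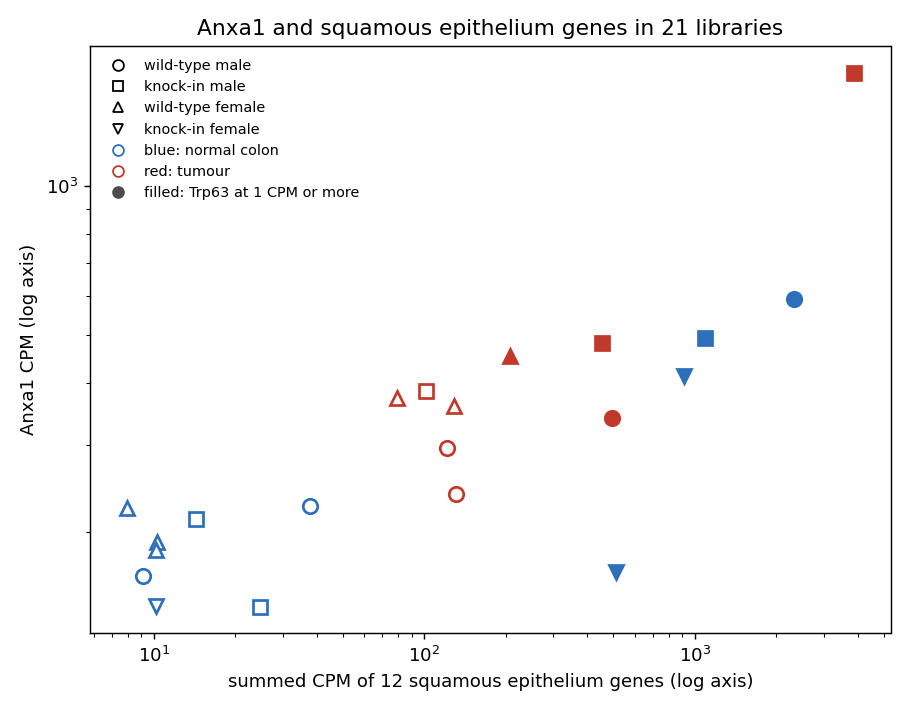
Anxa1 level against the summed level of 12 squamous epithelium genes (both in CPM, log axes) in 21 libraries; shapes give genotype and sex, red is tumour, blue is normal colon, and filled points have Trp63 at 1 CPM or more. The point at the upper right is knock-in male tumour 2 (1694 CPM of Anxa1 at 3884 CPM of squamous genes); knock-in female normal b (166 CPM at 511 CPM) lies below the rest of the filled points.

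Anxa3 fell in the tumours of wild-type mice of both sexes. In wild-type males the tumours had 93.4, 92.8 and 92.8 CPM and the normal libraries 123, 141 and 141 CPM, without overlap. The log2 difference was -0.54 ± 0.12 (edgeR adjusted p = 0.00274). In wild-type females the tumours had 115, 109 and 120 CPM and the normal libraries 236, 231 and 211 CPM, a log2 difference of -0.98 ± 0.12 (adjusted p = 5.35e-06). Both differences stayed past the threshold without the 8 libraries, at -0.62 (adjusted p = 0.0145) and -0.9976 (adjusted p = 0.000352).

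In knock-in males Anxa3 did not follow. The tumours had 141, 173 and 115 CPM and the normal libraries 130, 142 and 128 CPM, with overlap and a log2 difference of 0.10 ± 0.12 (interval -0.16 to 0.36, adjusted p = 0.583). The tumour with 173 CPM is the one with the most squamous signal. Group means fell in the order wild-type female normal colon (226 ± 13.4 CPM), knock-in male tumours (143 ± 29.0), wild-type male normal (135 ± 10.3), knock-in male normal (133 ± 7.44), knock-in female normal (133 ± 17.0), wild-type female tumours (115 ± 5.92) and wild-type male tumours (93.0 ± 0.365). The first did not overlap the second, nor the sixth the seventh, and all other neighbours overlapped. Genes of differentiated colonocytes summed to 2733 to 5538 CPM in wild-type female normal colon, 2964 to 3511 CPM in knock-in female normal colon, 1364 to 3437 CPM in wild-type male normal colon and 989 to 1589 CPM in knock-in male normal colon. In tumours the sums were 314 to 529 CPM in wild-type females, 500 to 691 CPM in wild-type males and 518 to 1407 CPM in knock-in males. Their part in the Anxa3 differences was not tested.

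Of the 2 YAP targets, Amotl2 rose in wild-type female tumours. It stood at 41.8, 33.4 and 47.9 CPM in tumours and 24.3, 17.4 and 14.5 CPM in normal colon, without overlap, a log2 difference of 1.11 ± 0.21 (edgeR adjusted p = 0.000252). In wild-type males the tumours had 42.4, 37.2 and 48.4 CPM and the normal libraries 40.3, 31.8 and 32.4 CPM, which overlapped (0.30 ± 0.20, adjusted p = 0.267). In knock-in males the groups overlapped too, at 32.4 to 38.2 CPM in tumours and 26.5 to 44.7 CPM in normal colon (-0.13 ± 0.20, adjusted p = 0.677). All group means lay between 33.6 and 42.7 CPM apart from that of wild-type female normal colon, which was 18.7 ± 5.01 CPM and did not overlap any other group. Each other neighbour in the order overlapped the next.

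Ankrd1 did not pass the test in any comparison. Its highest value was 5.23 CPM in knock-in male normal 1, where the other libraries of the group had 0.569 and 1.21 CPM, and 14 of the 21 libraries were under 1 CPM. Between tumours and normal colon of knock-in males its log2 difference was -2.19 with a 95% interval of -4.05 to -0.32 (edgeR adjusted p = 0.0857), and without knock-in male normal 2 it was -2.72 (adjusted p = 0.0411). Without knock-in male normal 1, the library at 5.23 CPM, it was -0.85 (adjusted p = 0.534). A difference between wild-type tumours and normal colon was not detectable at this depth in either sex.

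Taking the 6 genes by comparison, 1 of 6 passed in wild-type males (Anxa3, lower), against 35.7% of all genes tested (16.5% higher and 19.3% lower). In wild-type females 3 of 6 passed (Clu and Amotl2 higher, Anxa3 lower), against 49.1% of all genes (25% higher and 24% lower). In knock-in males 0 of 6 passed, against 20.4% of all genes (10.4% higher and 9.97% lower), and 2 of the 6, Anxa1 and Ankrd1, had an unadjusted p under 0.05. DESeq2 also called 0 there. Groups without overlap occurred for 1, 4 and 1 of the 6 in wild-type males, wild-type females and knock-in males, against 52.4%, 58.4% and 33.6% of all genes. The share in wild-type females is near its background, and those in males lie below theirs. The median log2 difference of the 6 was -0.02, 1.05 and 0.27 in wild-type males, wild-type females and knock-in males, beside medians of 0.0054, 0.0082 and 0.0066 over all genes tested. With the 8 libraries of squamous signal left out, the counts were 1 in wild-type males and 4 (Anxa1 added) in wild-type females. In knock-in males that fit leaves 1 tumour, so no count is given.

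**Figure D3:**
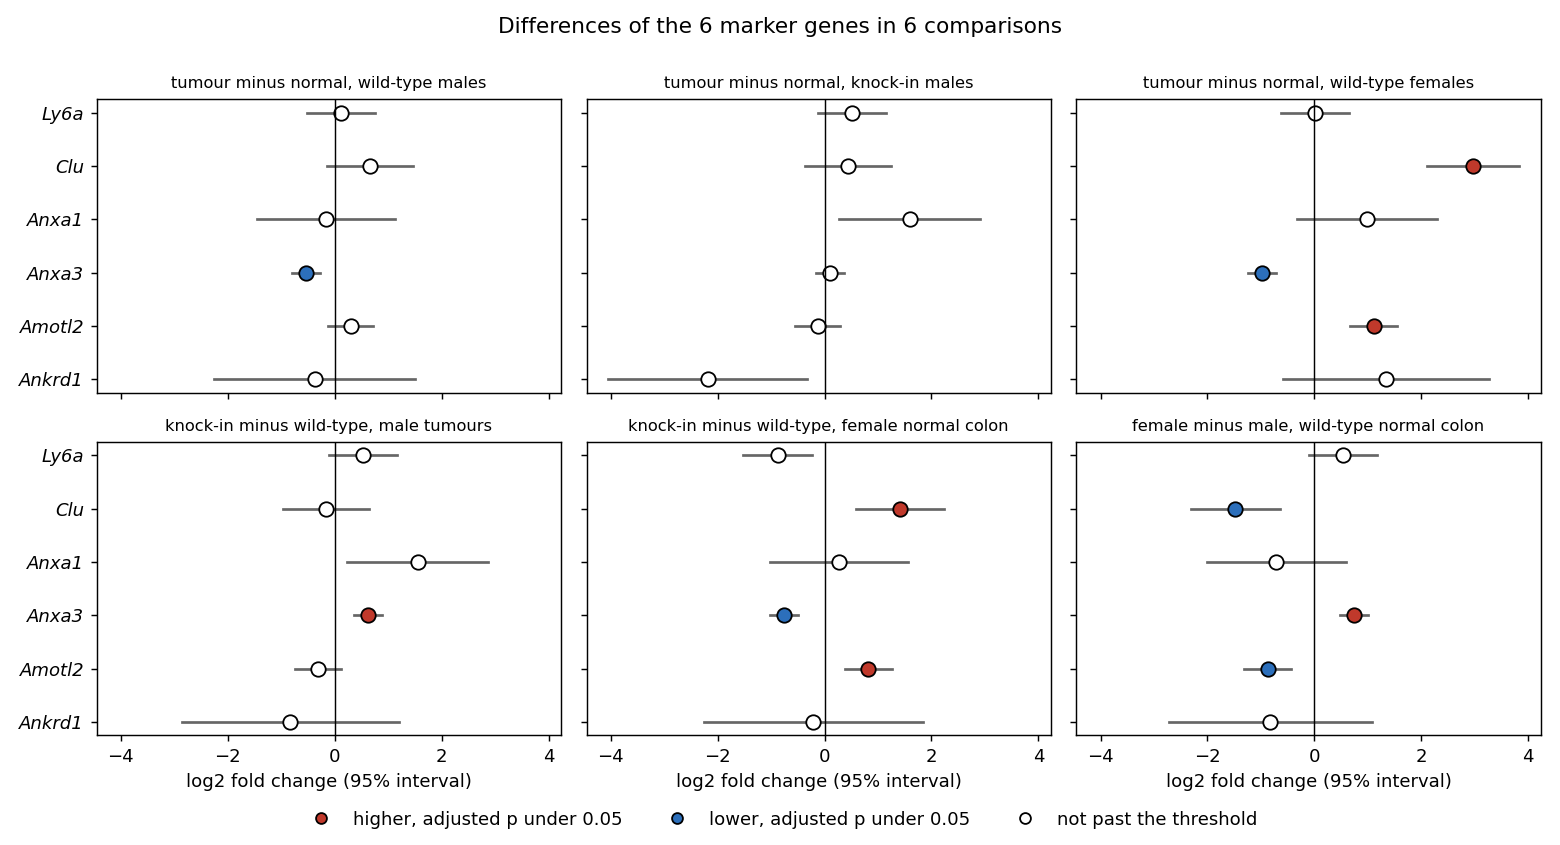
Log2 fold change of the 6 genes (points, with 95% intervals as lines) in 6 comparisons; red and blue points are higher and lower with an edgeR adjusted p under 0.05, white points did not pass. Anxa3 has the narrowest intervals and Ankrd1 the widest, and no gene is red or blue for tumours against normal colon of knock-in males.

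The genotypes were compared in tumours of males and in normal colon of each sex. In male tumours 1 of 6 passed (Anxa3, higher in the knock-in, log2 0.62 ± 0.12, edgeR adjusted p = 0.00721), against 14.5% of all genes (9.3% higher and 5.23% lower). Its knock-in values (141, 173 and 115 CPM) lay above the wild-type values (92.8 to 93.4 CPM). Without knock-in male tumour 2 the difference was 0.44 (adjusted p = 0.0517), and without the 8 libraries, which leaves 1 knock-in tumour, 0.57 (adjusted p = 0.214), so the call was lost both times. Ly6a and Anxa1 were also higher in every knock-in tumour than in any wild-type one (log2 0.54 and 1.55) but did not pass (adjusted p = 0.229 and 0.0983), and without knock-in male tumour 2 the Anxa1 difference was 0.54 (adjusted p = 0.584). Groups without overlap occurred for 4 of the 6 and for 36.4% of all genes. The 4 include Ankrd1, which was lower in the knock-in (log2 -0.83, edgeR adjusted p = 0.576). It had 12 counts or fewer in each of these libraries, at 0.340 to 0.782 CPM against 0.863 to 0.920 CPM. In male normal colon 0 of 6 passed, against 0.0126% of all genes (groups without overlap, 0 of 6 and 7.08%), 0 of the 6 had an unadjusted p under 0.05, and DESeq2 called 0. The log2 differences there ran from -0.21 (Anxa1) to 0.99 (Ankrd1).

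In female normal colon 3 of 6 differed between genotypes, against 16% of all genes (8.97% higher and 7% lower). Clu was higher in the knock-in libraries (119, 199 and 95.2 CPM, against 67.2, 35.9 and 51.2 CPM in the wild type), with a log2 difference of 1.41 ± 0.39 (edgeR adjusted p = 0.0228). Amotl2 was higher too (28.7, 34.5 and 37.6 against 24.3, 17.4 and 14.5 CPM), by 0.82 ± 0.21 (adjusted p = 0.0128). Anxa3 was lower (131, 118 and 152 against 236, 231 and 211 CPM), by -0.76 ± 0.12 (adjusted p = 0.000678). None of the 3 overlapped between genotypes, as held for 37.8% of all genes. The Clu call was lost without wild-type female normal 2 (adjusted p = 0.111), wild-type female normal 3 (0.0501) or knock-in female normal a (0.127), and the Amotl2 call without wild-type female normal 2 (0.0630). Anxa3 alone passed once the 8 libraries were left out, which leaves 1 knock-in library (-0.94, adjusted p = 0.0184).

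Between the sexes, 3 of 6 differed in wild-type normal colon, against 15.9% of all genes (5.74% higher and 10.2% lower in females). Of the 6, 2 did not overlap, Anxa3 and Amotl2, against 34.2% of all genes. Females had more Anxa3 (0.74 ± 0.12, edgeR adjusted p = 0.000737) and less Clu (-1.48 ± 0.39, adjusted p = 0.0185) and Amotl2 (-0.88 ± 0.21, adjusted p = 0.00866). The Clu call was lost without wild-type male normal 2 (adjusted p = 0.110) or wild-type female normal 2 (0.0938), and when only these 2 groups were fitted (0.0652). Of these, Anxa3 alone passed without the 8 libraries (0.66, adjusted p = 0.0214). In wild-type tumours 0 of 6 passed, against 0.86% of all genes (groups without overlap, 2 of 6 and 31.2%), with unadjusted p under 0.05 for Clu (0.83 ± 0.38 higher in females, adjusted p = 0.224) and Anxa3 (0.30 ± 0.12, adjusted p = 0.175). In knock-in normal colon 0 of 6 passed, against 0.584% (groups without overlap, 0 of 6 and 19.7%), and the unadjusted p was under 0.05 for Ankrd1 only. DESeq2 called 0 in both.

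Wild-type female normal libraries thus enter all 3 of the comparisons in which 3 members passed, and those comparisons share these libraries, so their calls are not separate evidence. The same libraries had the lowest endothelial sum (105 to 145 CPM, against 243 to 329 CPM in the other normal groups), with all 12 endothelial genes detected in each library. They also had low sums of fibroblast genes (1224 to 1468 CPM, against 2347 to 3785 CPM). Their squamous sums were low too (7.94 to 10.3 CPM), but overlapped those of the other normal groups (9.15 to 2336 CPM). In wild-type normal colon 11 of 12 endothelial and 4 of 10 fibroblast genes were lower in females than males, against 10.2% of all genes. Between genotypes in female normal colon, 5 of 10 smooth muscle genes were also lower in the wild type, against 8.97% of all genes. The part of these cells in the levels of Clu, Amotl2 and Anxa3 was not tested.

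Whether an effect differed between groups was tested by interaction. The tumour effect on Anxa3 was 0.64 ± 0.17 greater on the log2 scale in knock-in than in wild-type males, with an edgeR adjusted p of 0.0585, and 0 of 6 members passed, against 1.51% of all genes. The tumour effect on Clu was 2.31 ± 0.55 greater in wild-type females than in wild-type males (adjusted p = 0.0516), that on Amotl2 0.81 ± 0.29 greater (adjusted p = 0.192) and that on Anxa3 -0.44 ± 0.17 (adjusted p = 0.252). Again 0 of 6 passed, against 1.12%. DESeq2 called 1 member in each of these, Anxa3 (adjusted p = 0.0161) and Clu (adjusted p = 0.00102). In normal colon, Anxa3 had a genotype effect that was 0.74 ± 0.17 more negative in females than in males (an interaction of -0.74, adjusted p = 0.0289), so 1 of 6 passed, against 2.54% of all genes (1.76% higher and 0.778% lower). That call was lost without any 1 of 6 libraries, among them wild-type male normal 1 (adjusted p = 0.0864) and knock-in female normal a (0.0977). For Clu and Amotl2 the same interaction was 1.36 ± 0.54 (adjusted p = 0.201) and 0.70 ± 0.29 (adjusted p = 0.209).

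The 6 genes did not move as a block. Over the 21 libraries the Pearson correlations of their log2 CPM, 15 pairs that share libraries and depth, ran from -0.76 (Anxa3 with Amotl2) to 0.71 (Clu with Amotl2). Clu and Anxa3 had -0.75, and Ly6a and Anxa1 had 0.51. After the group means were taken out the range was -0.30 to 0.62, and Clu with Amotl2 came to 0.09. The genes most alike to Clu over the libraries included Ccdc3 and H6pd (r = 0.93 and 0.92). Those most alike to Amotl2 were Fam171a2, Fbxo21 and Zfp503 (r = 0.92, 0.90 and 0.89), and Anxa3 was most like Tmem87a, Far1 and Pla2g4a (r = 0.95, 0.95 and 0.94). Anxa1 was most like Atp1b3, Cast and Prss27 (r = 0.91, 0.90 and 0.89) and, within groups, like Gsto1, Dmkn and Tmprss11d (r = 0.95, 0.93 and 0.93). Dmkn encodes dermokine, a protein secreted by stratified epithelium, and Tmprss11d an airway and squamous epithelial protease. Ly6a was most like Hsd17b12, Dnajc10 and Gpr110 over the libraries (r = 0.88, 0.87 and 0.85) and like Parp9, Psma1 and Ly6c1 within groups (r = 0.88, 0.87 and 0.86), and Ly6c1 is the gene with which it shares sequence. For Ankrd1 the highest values over the libraries were lower, 0.73 for Mical1 and 0.69 for Gmpr2. Within groups Ankrd1 was most like Zfp619 (r = 0.85).

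Other genes of the same programs were followed as lists, which were chosen with earlier results of these data known. The background for each list below is the share of all genes tested. In wild-type male tumours 16.5% rose and 19.3% fell, in knock-in male tumours 10.4% and 9.97%, and in wild-type female tumours 25% and 24%. Of 27 tested genes that are also used as injury or fetal-like epithelial markers, 17 rose and 0 fell in wild-type male tumours, 10 rose and 0 fell in knock-in male tumours, and 21 rose and 0 fell in wild-type female tumours. Their median log2 differences were 1.28, 0.98 and 1.77. Ptgs2, the inducible cyclooxygenase that makes prostaglandins, rose in all 3 comparisons, by 2.40 ± 0.52, 2.63 ± 0.53 and 3.67 ± 0.56 (edgeR adjusted p = 0.00223, 0.00501 and 6.03e-05). Spp1, the secreted matrix protein osteopontin, rose by 2.10 ± 0.78, 3.45 ± 0.83 and 6.90 ± 1.03 (adjusted p = 0.0467, 0.0108 and 4.89e-05). In wild-type females squamous sums moved the same way (79.0 to 208 CPM in tumours and 7.94 to 10.3 CPM in normal colon), as did neutrophil sums (141 to 260 and 6.29 to 15.3 CPM), and their part in these rises was not tested. Without the 8 libraries 11 and 20 of the 27 rose in wild-type males and wild-type females, and 0 fell. In knock-in males that fit leaves 1 tumour, so no count is given.

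YAP and TAZ target genes other than Ankrd1 and Amotl2 moved both ways. Of 20, 3 rose and 4 fell in wild-type males, 3 rose and 0 fell in knock-in males, and 10 rose and 4 fell in wild-type females, with medians of -0.06, -0.06 and 0.52. Without the 8 libraries the medians were 0.05, 0.11 and 0.44, with 3 rises and 1 fall in wild-type males and 8 and 3 in wild-type females. In knock-in males that fit leaves 1 tumour, so no count is given. Cyr61, a secreted matrix protein and classical YAP target, rose in wild-type males (1.40 ± 0.37, edgeR adjusted p = 0.00721) and wild-type females (2.80 ± 0.40, adjusted p = 2.23e-05). It stood at 46.6 ± 21.9 CPM in male tumours and 42.3 ± 7.58 CPM in female tumours, against 17.2 ± 6.98 and 5.85 ± 1.91 CPM in normal colon. Crim1, a membrane protein that binds BMPs, fell by 0.89 ± 0.21 and 1.33 ± 0.21 in the same comparisons (adjusted p = 0.00334 and 5.67e-05). Igfbp3, a carrier of insulin-like growth factors, rose in knock-in males (1.57 ± 0.46, adjusted p = 0.0265) and wild-type females (3.19 ± 0.51, adjusted p = 9.66e-05).

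Of 19 core genes of the Hippo pathway, Amotl2 apart, 8 rose and 0 fell in wild-type males, 8 rose and 1 fell (Tead3) in knock-in males, and 14 rose and 0 fell in wild-type females. Tead2, a DNA-binding partner of YAP, rose from 17.5 ± 9.80 to 74.0 ± 6.49 CPM in wild-type males (2.07 ± 0.34, edgeR adjusted p = 0.000254) and from 2.77 ± 0.233 to 57.9 ± 5.54 CPM in wild-type females (4.37 ± 0.41, adjusted p = 4.64e-07). Amot, the founding angiomotin and a relative of Amotl2, rose in wild-type males, knock-in males and wild-type females, by 1.52 ± 0.27, 0.78 ± 0.26 and 2.30 ± 0.28 (adjusted p = 0.000387, 0.0436 and 4.29e-06). Yap1, named here as the pathway's effector after its values were seen, rose by 0.57 ± 0.11, 0.42 ± 0.10 and 1.03 ± 0.11 (adjusted p = 0.000463, 0.0108 and 7.47e-07). In knock-in males the 9 Hippo calls were lost when only those 2 groups were fitted, a fit that called fewer of all genes too. Without the 8 libraries 1 knock-in male tumour is left, so that fit cannot decide whether these calls hold.

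Stem cell genes of the uninjured crypt, the counterpart of the fetal-like state, rose more often than they fell. Of 19, 8 rose and 3 fell in wild-type males, 4 rose and 1 fell in knock-in males, and 14 rose and 3 fell in wild-type females. Axin2, a feedback target of Wnt signalling, rose in wild-type males (1.90 ± 0.43, edgeR adjusted p = 0.00294) and wild-type females (3.75 ± 0.47, adjusted p = 9.06e-06), and in knock-in males the difference was 0.53 ± 0.41 (adjusted p = 0.374). Mex3a, an RNA-binding protein of slow-cycling stem cells, rose in wild-type males (2.23 ± 0.44, adjusted p = 0.00121) and females (4.52 ± 0.52, adjusted p = 4.35e-06). Lrig1, which restrains EGF receptor signalling in stem cells, fell by 1.59 ± 0.18 and 0.53 ± 0.18 in those groups (adjusted p = 9.85e-06 and 0.0192).

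**Figure D4:**
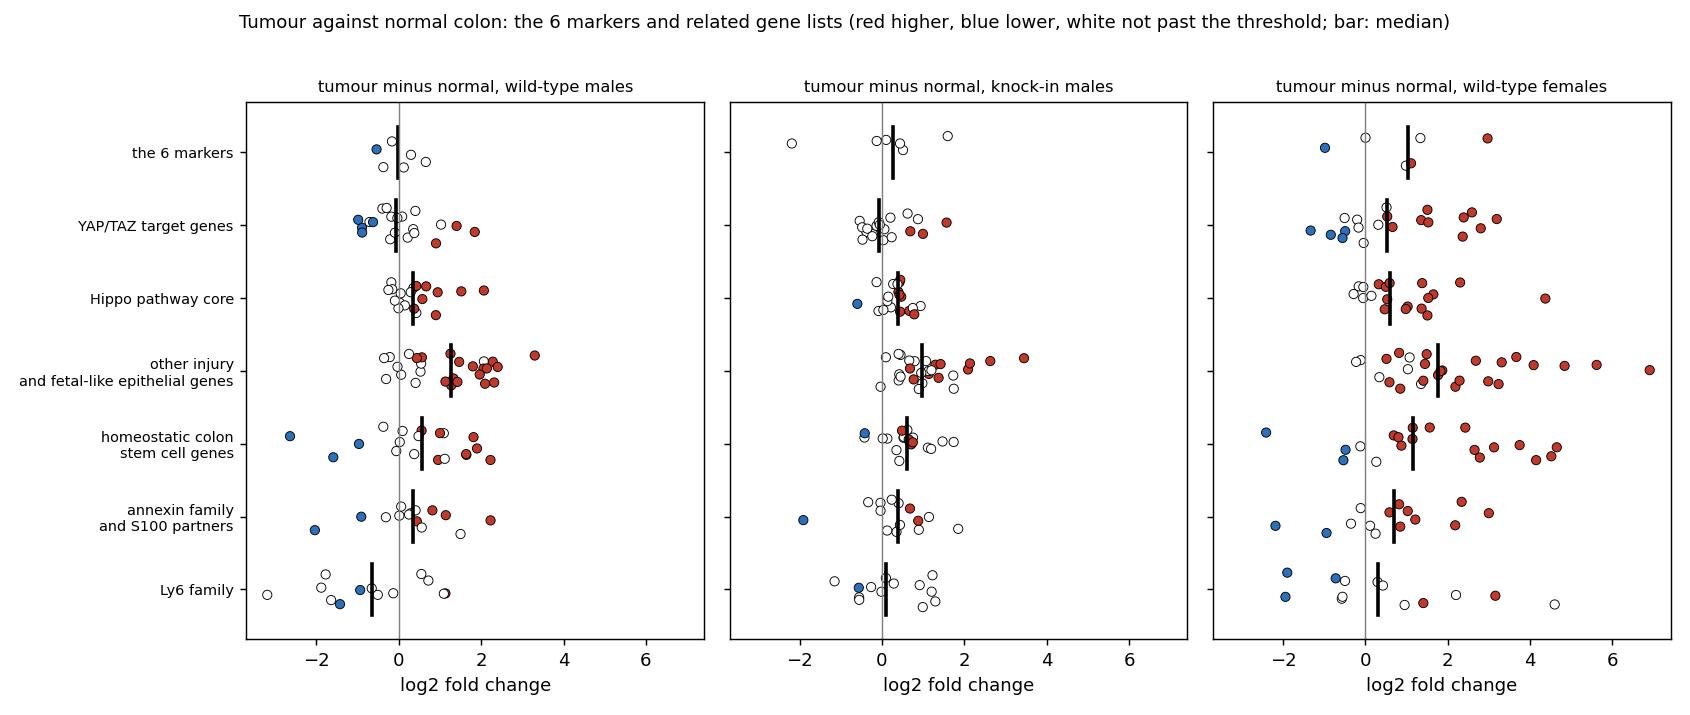
Log2 fold change, tumour against normal colon, of the 6 genes and of 6 lists of related genes in wild-type males, knock-in males and wild-type females; each point is a gene (red higher and blue lower with an edgeR adjusted p under 0.05, white not past it), spread vertically at random, and bars are medians. Median differences of the other injury and fetal-like genes lie at 1.28, 0.98 and 1.77, and those of the 6 markers at -0.02, 0.27 and 1.05.

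Relatives of the members moved both ways. Of 14 tested annexins and annexin partners, Anxa1 and Anxa3 apart, 4 rose and 2 fell in wild-type males, 2 rose and 1 fell in knock-in males, and 8 rose and 2 fell in wild-type females. Anxa2, the annexin that forms a complex with S100a10 at the cell membrane, rose in knock-in males by 0.68 ± 0.16 (edgeR adjusted p = 0.00858), to 833 ± 211 CPM. S100a11, a calcium-binding partner of Anxa1, rose by 1.14 ± 0.24, 0.88 ± 0.24 and 2.18 ± 0.25 in wild-type males, knock-in males and wild-type females (adjusted p = 0.00141, 0.0167 and 2.32e-06). Anxa11 fell beside Anxa3 in wild-type males (-0.91 ± 0.12, adjusted p = 3.89e-05) and females (-0.94 ± 0.12, adjusted p = 7.96e-06). Anxa13, an annexin of absorptive gut epithelium, was low and fell in all 3 comparisons (-2.04, -1.91 and -2.18).

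In the Ly6 family, Ly6a apart, 1 rose and 2 fell of 13 in wild-type males, 0 rose and 1 fell in knock-in males, and 2 rose and 3 fell in wild-type females. Ly6e, a broadly made relative that interferon induces, rose in wild-type males (1.13 ± 0.22, edgeR adjusted p = 9.00e-04) and females (1.41 ± 0.23, adjusted p = 5.96e-05), and in knock-in males the difference was 0.09 ± 0.22. Lypd8, which keeps bacteria off the colon surface, was the most abundant, and fell in wild-type males (5704 ± 798 to 2125 ± 227 CPM), in knock-in males (4674 ± 829 to 3163 ± 260 CPM) and in wild-type females (8672 ± 1251 to 2335 ± 519 CPM). Its adjusted p was 1.13e-05, 0.0235 and 2.40e-07. Among receptors and lipid-binding relatives of clusterin, 3 of 6 rose and 2 fell in wild-type males, 2 rose and 1 fell in knock-in males, and 3 rose and 0 fell in wild-type females. Lrp8, a receptor that takes up clusterin, rose in each, by 1.70 ± 0.39, 1.12 ± 0.38 and 2.28 ± 0.41 (adjusted p = 0.00319, 0.0481 and 0.000206).

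Between genotypes in male tumours 14.5% of all genes tested passed (9.3% higher and 5.23% lower), and the lists are given beside that share. Of the 27 injury and fetal-like genes, 1 was higher and 2 were lower in knock-in tumours, with a median of -0.15. Areg, the EGF receptor ligand amphiregulin, was higher (31.6 ± 6.30 against 15.0 ± 2.45 CPM, log2 1.10 ± 0.20, edgeR adjusted p = 0.00433). Ly6e (-0.98 ± 0.22, adjusted p = 0.0121) and Hmga2, a chromatin protein of fetal tissue (-1.15 ± 0.32, adjusted p = 0.0279), were lower. Of 20 YAP and TAZ targets 1 was higher and 1 lower, and of 19 Hippo genes 1 was higher and 2 lower, among them Tead2 (-1.03 ± 0.33, adjusted p = 0.0468). Of 19 crypt stem cell genes 4 were higher and 0 lower, with Lrig1 at 164 ± 44.8 against 68.7 ± 13.6 CPM (1.24 ± 0.18, adjusted p = 0.00253) and the water channel Aqp4 at 123 ± 27.1 against 23.3 ± 4.46 CPM (2.38 ± 0.54, adjusted p = 0.0137). Anxa11 was higher together with Anxa3 (0.39 ± 0.12, adjusted p = 0.0421) and Anxa6 lower (-0.86 ± 0.17, adjusted p = 0.00647). When the 8 libraries were left out, which leaves 1 knock-in tumour, 0 genes of these lists passed, and the same held for tumours against normal colon of knock-in males.

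In normal colon of females the YAP and TAZ targets differed between genotypes in the direction of Clu and Amotl2. Over all genes tested 8.97% were higher and 7% lower in the knock-in. Of the 20 targets, 8 were higher and 1 was lower, with a median log2 difference of 0.64. Of 19 Hippo genes 4 were higher and 0 lower. Of the 27 other injury and fetal-like genes 1 was higher and 1 lower (median 0.26). In the same comparison 10 of 12 endothelial, 5 of 10 smooth muscle and 4 of 10 fibroblast genes were higher in the knock-in and 0 were lower. Smooth muscle genes summed to 7023 to 9866 CPM in the knock-in and 2027 to 4695 CPM in the wild type. The part of these cells in the list's differences was not tested. In normal colon of males 0 genes of the 7 lists passed the edgeR test, against 0.0126% of all genes.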

How the data were processed

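RNA was sequenced from 21 colon libraries in 7 groups of 3. Per the labels' protocols, Qiazol-purified total RNA was depleted of ribosomal RNA with RNase H, primed with random hexamers and sequenced on a NovaSeq instrument. The submitters' processing notes name Trimmomatic, HISAT2, featureCounts, DESeq2 and mm10, and versions, annotation and strand setting are not given in the sources used here. The authors deposited whole-number read counts per gene, not normalized. A deposited table of the authors' own comparisons was not used. The column name of 1 knock-in female normal library occurs 2 times, so those 2 columns were tied to the group and not to a library number.

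Counts of 15936 genes that passed edgeR's filterByExpr were fitted with edgeR 4.0.16 (TMM scaling, robust quasi-likelihood test, 1 coefficient per group over all 21 libraries), with Benjamini-Hochberg adjustment over all genes and a threshold of 0.05. Log2 CPM used a prior count of 2. Standard errors are the log2 fold change over the root of F. Fits were tested on simulated data of 15936 genes with 200 changed and all others at the same level in every group. For tumour against normal colon of wild-type males, 50% of genes changed by 1 on the log2 scale were recovered. Of those changed by 2, 86% were recovered, and there were 5 false calls. For the interaction between genotypes the shares were 21% and 74%, with 4 false calls. In the real tumour comparison of wild-type males 35.7% of all genes passed, so these shares do not give the recovery in the real fit. Replicates differed beyond counting noise in all 21 pairs of libraries of a group (chi-square per degree of freedom 6.60 to 63.4), so none were merged. Libraries with the same replicate number deviated together in wild-type males, tumour against normal colon (r = 0.169 to 0.215 over 3 pairs), and not in all pairs of any other comparison of 3 pairs. The replicate block used the same replicate terms in all groups fitted, so it did not model pairs within wild-type males. It changed none of the calls on the 6 genes there, which cannot decide whether pairing matters. The members and lists were chosen with earlier results of these data known. Named list genes are, per list, up to 2 of the largest rises and falls past the threshold with a mean of at least 50 counts in a group, in each tumour comparison and between genotypes in male tumours. Some genes so named are given in other comparisons too, and others only in part of them. Also named are genes among the 3 most correlated with each member. Some genes that these rules pick are not reported here. Alternatives were DESeq2 size factors, library totals, no count filter, the DESeq2 1.42.0 Wald test, fits of only the compared groups, a replicate block, libraries numbered 152 and above as a covariate, leaving out each library, and leaving out the 8 libraries with Trp63 at 1 CPM or more.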

Additional observations from a re-analysis of the deposited data

Results flagged for a closer look

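The genotype difference of Anxa3 in normal colon differed between the sexes. It was -0.76 on the log2 scale in females (226 ± 13.4 CPM in the wild type and 133 ± 17.0 CPM in the knock-in) and -0.02 in males (135 ± 10.3 and 133 ± 7.44 CPM). The interaction was -0.7442 ± 0.17 (edgeR adjusted p = 0.0289), with each of the 3 wild-type female libraries above each of the other 9 normal libraries. The call was lost in 6 of the 12 fits that left out 1 library and without the 8 libraries with squamous signal (-0.86, adjusted p = 0.193), where 1 knock-in female library is left. In the same wild-type female libraries endothelial genes summed to 105 to 145 CPM (253 to 260 CPM in knock-in females), fibroblast genes to 1224 to 1468 CPM (2370 to 2952 CPM) and smooth muscle genes to 2027 to 4695 CPM (7023 to 9866 CPM). The part of these cells in this result was not tested.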

How the results depend on the processing

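Over the 6 genes and 12 comparisons, 1002 of 1094 values under an alternative kept their direction and their side of the threshold, 20 were no longer past it, 14 were newly past it and 58 changed sign. None of the values that changed sign had passed the threshold, and the cause was not tested. With DESeq2 size factors and the DESeq2 Wald test, Ly6a in wild-type female tumours came to -0.0097 and -0.0096, and Anxa3 between the sexes in knock-in normal colon to 0.0184 and 0.0187. For the latter, library totals gave 0.0015 and no count filter 0.0014. DESeq2 called 1 member in each tumour interaction, and library totals 1 in that between the sexes. A fit with the replicate block changed no member's call in any comparison it could be run for, and knock-in female normal colon has no numbers for 2 of its libraries. Its replicate terms were shared by all groups fitted, so it did not model pairs within a group. In wild-type males it gave -0.55 for Anxa3 (edgeR adjusted p = 0.00249) and 1 member called.

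Without the 8 libraries with squamous signal, where knock-in male tumours and knock-in female normal colon keep 1 library each whose spread is taken from the other groups, the members called were 0 in male tumours between genotypes, 1 in female normal colon between genotypes, 1 in wild-type normal colon between the sexes and 0 in the interaction of normal colon. The signs that changed were those of Anxa1 in wild-type male tumours (0.45), Ly6a in wild-type female tumours (-0.0411), Clu and Ankrd1 between genotypes in male normal colon (-0.0705 and -0.33), Anxa1 and Ankrd1 between genotypes in female normal colon (-0.50 and 1.16), Anxa1 between the sexes in wild-type normal colon (0.0134), Clu and Ankrd1 between the sexes in knock-in normal colon (0.44 and 0.73), Ly6a and Clu in the tumour interaction of genotype (-0.097 and 0.0447), and Anxa1 and Ankrd1 in the interaction of normal colon (-0.34 and 1.49).

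With 1 library left out at a time, members called ranged from 1 to 2 in wild-type male tumours (1 with all libraries) and 0 to 1 in knock-in male tumours (0). Between genotypes the range was 0 to 1 in male tumours (1) and 1 to 4 in female normal colon (3). Between the sexes in wild-type normal colon it was 2 to 3 (3). For the interactions of genotype, of sex and of normal colon it was 0 to 1 each (0, 0 and 1). Signs of log2 differences changed within the ranges that follow. Wild-type male tumours: Anxa1 -0.49 to 0.56, Ankrd1 -0.78 to 0.063. Knock-in male tumours: Anxa3 -0.0925 to 0.24, Amotl2 -0.38 to 0.0087. Wild-type female tumours: Ly6a -0.17 to 0.22. Genotypes in male tumours: Clu -0.38 to 0.0414. Genotypes in male normal colon: Ly6a -0.24 to 0.34, Clu -0.29 to 0.59, Anxa1 -0.89 to 0.52, Anxa3 -0.094 to 0.0156, Ankrd1 -0.40 to 1.46, Amotl2 -0.02 to 0.32. Genotypes in female normal colon: Anxa1 -0.37 to 0.54, Ankrd1 -1.63 to 0.31. Sexes in wild-type tumours: Ankrd1 -0.0908 to 1.41, Amotl2 -0.19 to 0.0651. Sexes in wild-type normal colon: Anxa1 -1.03 to 0.0153. Sexes in knock-in normal colon: Clu -0.48 to 0.0914, Anxa1 -0.88 to 0.44, Anxa3 -0.10 to 0.0807. Tumour interaction of genotype: Clu -0.79 to 0.12. Tumour interaction of sex: Ly6a -0.29 to 0.0967. Interaction of normal colon: Anxa1 -0.25 to 1.17, Ankrd1 -2.62 to 0.21.

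Counts of all genes called moved more. Without the 8 libraries they went from 5697 to 2629 in wild-type male tumours, 3246 to 2 in knock-in male tumours, 2315 to 3 between genotypes in male tumours, 2 to 1 and 2545 to 379 in male and female normal colon between genotypes, 137 to 11, 2534 to 468 and 93 to 4 between the sexes in wild-type tumours, wild-type normal and knock-in normal colon, and 240 to 0, 179 to 7 and 405 to 8 in the interactions of genotype, of sex and of normal colon. Fits of only the compared groups gave 724 in knock-in male tumours, 1438 and 0 between genotypes in male tumours and male normal colon, 1166 and 1623 between the sexes in wild-type tumours and normal colon, and 1 and 254 in the interactions of genotype and of normal colon. DESeq2 gave 6 in male normal colon, 886 in wild-type tumours and 582 in knock-in normal colon between the sexes, and 1331, 580 and 926 in the interactions. In knock-in normal colon between the sexes, DESeq2 size factors, library totals and no filter each gave 20, and the library-number covariate 17. In the interaction of genotype no filter gave 95, the block 0 and the covariate 2, and in that of sex library totals gave 312, the block 73 and the covariate 23. Leaving out 1 library gave 3659 to 5373, 1392 to 2992 and 6647 to 7329 in the 3 tumour comparisons (wild-type males, knock-in males, wild-type females), 429 to 2251, 2 to 2 and 1022 to 2745 between genotypes, 12 to 116, 1037 to 2799 and 5 to 648 between the sexes, and 0 to 2104, 31 to 544 and 91 to 613 in the interactions. With library totals the median of all genes rose to 0.15 in wild-type female tumours, 0.10 between genotypes in female normal colon and 0.13 in the interaction of sex, and higher and lower calls were 5049 and 3079 (3990 and 3831 with TMM), 1796 and 672 (1429 and 1116), and in the sexes' wild-type tumours 123 and 78 (64 and 73), wild-type normal colon 539 and 1975 (915 and 1619) and knock-in normal colon 11 and 9 (29 and 64), and in the interaction of normal colon 401 and 88 (281 and 124). Depth limits Ankrd1, which had 3 counts or fewer in 5 libraries.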
